A study of Mus musculus with 2 samples.

Results

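The 10 BCL2 family genes described here were followed through single-cell RNA libraries of cells from the inflamed mouse eye: the pro-survival genes Mcl1, Bcl2a1a, Bcl2a1b, Bcl2a1d and Bcl2l1, the BH3-only genes Bcl2l11, Pmaip1, Bbc3 and Bid, and the effector Bax. They were picked by symbol from the 31053 genes counted in both libraries, and all 10 were found. Mice of the C57BL/6 strain had received an intraocular injection of zymosan, a yeast cell wall preparation that draws in myeloid cells, together with antiserum against the chemokine receptor CXCR2 (aCXCR2) or with NRS antiserum, taken here as the control. Vitreous fluid and a rinse of the retinas were collected and cells were purified with Ly6G beads; Ly6G is a surface protein of mouse neutrophils. Zymosan, the strain and the bead purification were common to both groups, and the labels give no age, time point or number of animals. There was 1 library for each treatment, so no difference between aCXCR2 and NRS has a replicate check, no test was run, and every interval below covers counting error only.

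BCL2 family proteins control whether the outer mitochondrial membrane stays intact. Bax, once active, makes pores that let cytochrome c out and start caspase activation; the pro-survival proteins hold it back, and the BH3-only proteins bind the pro-survival proteins or activate Bax itself. Neutrophils are short-lived and are known to depend on Mcl1, a protein that turns over fast, while the Bcl2a1 copies encode A1, a pro-survival protein made in haematopoietic cells and induced during inflammation.

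After cells with fewer than 500 UMIs (unique molecular identifiers, each counted as 1 captured transcript), fewer than 200 genes or more than 10% mitochondrial UMIs were left out, 4826 of 5551 barcodes were kept in aCXCR2 and 5655 of 7314 in NRS. The kept cells had a median of 10384 UMIs in aCXCR2 and 4759 UMIs in NRS, and 53 kept barcodes occurred in both libraries. Clustering, done without the members, gave 27 clusters, of which 7 were neutrophil-like by their markers (2391 cells in aCXCR2, 1948 in NRS), 6 were monocyte or macrophage-like, called macrophage-like here (1757 and 600 cells), and 3 were photoreceptor-like (201 and 636 cells). The purified cells were thus not all of the labelled type, since macrophage-like and photoreceptor-like cells were among them. The neutrophil-like class was 49.5% of the kept cells in aCXCR2 and 34.4% in NRS. These shares leave out the clusters with no class, which together held more cells in NRS. Among them, clusters 13 (58 cells in aCXCR2, 268 in NRS) and 15 (100 and 151 cells) scored highest as neutrophil. The share of neutrophils in each library is therefore uncertain. All 13 neutrophil markers reached 10 CPM (UMIs scaled so that each class of a library sums to 1000000) in the neutrophil-like class of each library. Ly6g itself was at 124 CPM in aCXCR2 and 20.1 CPM in NRS in that class, and at 1.90 and 0.253 CPM in the macrophage-like class. S100a8, a neutrophil marker, was found in the photoreceptor-like cells too, at 5088 CPM in aCXCR2 and 1636 CPM in NRS, against 79817 and 28676 CPM in the neutrophil-like cells, so RNA of other cells was present among the counts; its part in the values below was not tested. The 2 largest clusters with no class are number 3 (led by Ltf and Cdkn1a; 73 cells in aCXCR2, 724 in NRS) and number 4 (led by Itpr2 and Gdf15; 94 and 673 cells), and these are described beside the named classes.

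The neutrophil-like class was made up of different clusters in the 2 libraries. In aCXCR2, 40.4% of it was cluster 0 (led by Stfa2l1, S100a8 and S100a9) and 22.4% was cluster 9 (Retnlg, Ngp and S100a8), whereas these were 8.42% and 0.667% of the class in NRS. Cluster 1 (Ccl3, Hcar2 and Prok2) was 9.49% of the class in aCXCR2 and 31.0% in NRS, cluster 5 (Hdc, Cxcr2 and Il1r2) was 5.98% and 27.7%, and cluster 10 (Lcn2, Wfdc21 and Samsn1) was 5.02% and 19.97%. Cluster 8 (Pglyrp1, Wfdc21 and Ltb) held 14.4% in aCXCR2 and 11.2% in NRS, and cluster 21 (Ccl4, Csf3 and Tnf) held 2.30% and 1.03%. The macrophage-like class differed in makeup as well: cluster 2 (S100a4, Ly6c2 and Ccr2) was 44.2% of it in aCXCR2 and 7% in NRS, cluster 16 (Fscn1, Ccl8 and Il4i1) was 3.64% and 26.8%, and cluster 17 (Spp1, Gpnmb and Ctsd) was 4.55% and 20.5%. A level summed over a class therefore mixes the level within clusters with the clusters present, and both are given below.

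The 3 Bcl2a1 copies need their sequences beside their counts, because they are near-copies of each other on chromosome 9. In GENCODE vM21 (build GRCm38), Bcl2a1a (ENSMUSG00000102037) spans chr9:88956900-88962419 on the plus strand, Bcl2a1b (ENSMUSG00000089929) chr9:89199209-89207827 on the plus strand and Bcl2a1d (ENSMUSG00000099974) chr9:88723285-88731914 on the minus strand. Over the 519 coding bases, Bcl2a1a and Bcl2a1b were 97.9% identical, Bcl2a1a and Bcl2a1d 98.7%, and Bcl2a1b and Bcl2a1d 98.8%. The coding part of the last exon is shown here because the reads of a 3′ library come from this end of the transcript; the capital marks the only position of the 99 that differs between copies. These stretches are chr9:88962172-88962270 on the plus strand for Bcl2a1a, chr9:89207582-89207680 on the plus strand for Bcl2a1b and chr9:88723434-88723532 on the minus strand for Bcl2a1d.
Bcl2a1a: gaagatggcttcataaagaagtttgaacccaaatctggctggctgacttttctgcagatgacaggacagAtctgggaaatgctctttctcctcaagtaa
Bcl2a1b: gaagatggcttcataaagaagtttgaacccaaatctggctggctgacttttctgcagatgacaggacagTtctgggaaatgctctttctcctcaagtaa
Bcl2a1d: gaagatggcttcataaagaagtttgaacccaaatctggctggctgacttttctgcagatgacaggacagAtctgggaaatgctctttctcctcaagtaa
Bcl2a1a and Bcl2a1d were identical over this stretch, and Bcl2a1b carried A70T relative to Bcl2a1a, counted from 1 at the 5′ end of the stretch. A read of 98 bases, the length used for the transcript, can still tell the copies apart at some positions. Of the 98-base windows in the last 500 bases of the annotated transcripts, 63.5% for Bcl2a1a, 38.5% for Bcl2a1b and 41.2% for Bcl2a1d occurred in no other gene. The same share was 91.2% for Bax and 100% for the other 6 members. Bcl2a1b also shares 401 of its 817 exon bases with the gene model Gm29094, which had 0 UMIs in the neutrophil-like cells of both libraries and 5 and 3 UMIs in the macrophage-like cells of aCXCR2 and NRS. Counts of single copies are therefore uncertain, since reads that match several genes can be dropped or split by the authors' counting, and the sum of the 3 is given beside them.

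The stretches upstream of the 3 genes also hold a common part. A run of 84 bases, in capitals, was shared without a difference by the RefSeq promoter windows (250 bases before to 50 after the start, build GRCm38.p6) of Bcl2a1a, Bcl2a1b and Bcl2a1d, and by no other of the 32851 windows searched on the gene's strand. The 100 bases shown are chr9:88956725-88956824 on the plus strand, chr9:89199034-89199133 on the plus strand and chr9:88731940-88732039 on the minus strand; the run begins 187, 231 and 181 bases before the RefSeq start of Bcl2a1a, Bcl2a1b and Bcl2a1d.
Bcl2a1a: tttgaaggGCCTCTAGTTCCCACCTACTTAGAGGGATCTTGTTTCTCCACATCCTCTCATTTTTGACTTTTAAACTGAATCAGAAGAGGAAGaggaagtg
Bcl2a1b: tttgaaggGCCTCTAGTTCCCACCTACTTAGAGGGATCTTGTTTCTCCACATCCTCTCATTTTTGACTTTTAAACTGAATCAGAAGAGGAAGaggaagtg
Bcl2a1d: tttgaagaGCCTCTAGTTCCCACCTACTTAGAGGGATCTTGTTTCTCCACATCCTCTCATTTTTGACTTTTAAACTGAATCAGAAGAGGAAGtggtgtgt
The shared run is shown because all 3 copies were lower in the neutrophil-like cells of aCXCR2, as given below, although over macrophage-like clusters they did not follow each other; it describes the sequence and says nothing of which factors bind there.

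Mcl1 (ENSMUSG00000038612, chr3:95658788-95663176, plus strand) was the member with the most UMIs in neutrophil-like cells. It had 2044 CPM in aCXCR2 and 2008 CPM in NRS, a log2 ratio of 0.03 (95% interval 0.00 to 0.05). Over all genes of these cells the median log2 ratio was -0.52, and with scaling factors that centre the bulk of genes Mcl1 was higher in aCXCR2, at 0.64 (TMM) or 0.67 (median of ratios). A 3′ UMI count is 1 per captured transcript and was not divided by transcript length, so it is compared here between cells rather than between genes. In macrophage-like cells Mcl1 was at 727 CPM in aCXCR2 and 510 CPM in NRS (log2 ratio 0.51, 0.48 to 0.54), with a median of 0.26 within the 4 clusters compared and -0.06 in cluster 17, and in photoreceptor-like cells at 264 and 213 CPM. The order neutrophil-like, macrophage-like, photoreceptor-like was thus the same in each library, with no overlap of the counting intervals. With every cell thinned to 1000 UMIs, 82.8% of neutrophil-like cells had an Mcl1 UMI in aCXCR2 and 80.9% in NRS, against 50.7% and 40.7% of macrophage-like cells and 13.4% and 11.8% of photoreceptor-like cells; before thinning, 99.7% and 97.9% of neutrophil-like cells had one.

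**Figure D1:**
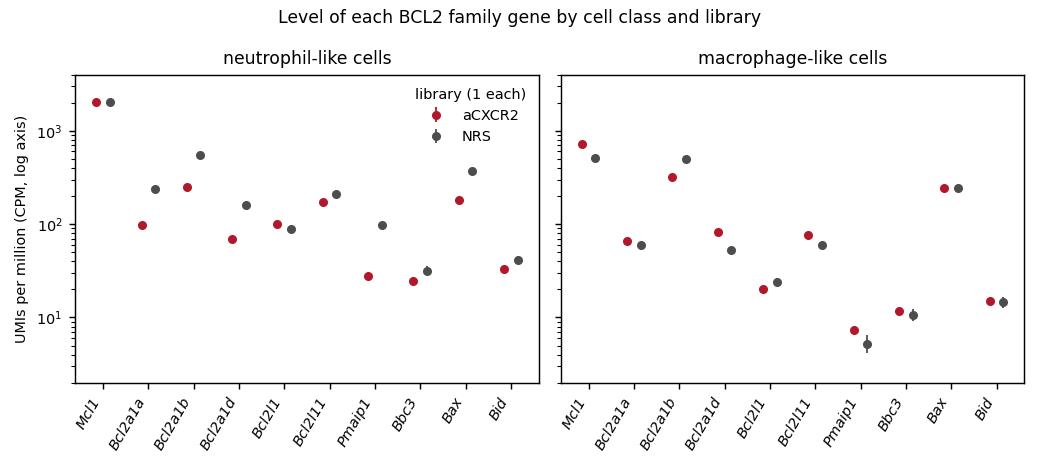
Level of each of the 10 genes in neutrophil-like and macrophage-like cells, as CPM on a log axis, with aCXCR2 and NRS side by side and bars showing exact 95% counting intervals of 1 library each. Mcl1 lies near 2000 CPM in the neutrophil-like cells of both libraries, while the 3 Bcl2a1 copies, Pmaip1 and Bax lie lower in aCXCR2 than in NRS there and do not do so together in macrophage-like cells.

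Among neutrophil-like clusters Mcl1 ran in nearly the same order in each library. In aCXCR2 it was highest in cluster 21, at 3596 CPM, followed by cluster 5 at 2990 CPM, cluster 9 at 2323 CPM and cluster 1 at 2226 CPM, and lowest in cluster 8, at 1389 CPM. In NRS cluster 5 led at 2876 CPM, followed by cluster 0 at 2460 CPM, and cluster 8 was lowest at 1542 CPM. Neighbours in these orders had overlapping intervals in 1 pair in aCXCR2 and 2 pairs in NRS. Clusters 0, 1, 5, 8 and 10 held 50 or more cells of both libraries, and within these 5 the Mcl1 log2 ratio of aCXCR2 over NRS lay between -0.34 in cluster 0 and 0.39 in cluster 1, and was positive in 2 and negative in 3. Clusters of 1 library are not replicates, and these values show only where in the library a difference sat. Among macrophage-like clusters Mcl1 was highest in cluster 11 (led by Cxcl3, Mmp12 and Arg1), at 938 CPM in aCXCR2 and 805 CPM in NRS, and lowest in cluster 17 (Spp1 and Gpnmb), at 327 and 340 CPM.

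All 3 Bcl2a1 copies, by contrast, were lower in the neutrophil-like cells of aCXCR2 than in those of NRS. Bcl2a1a had 97.6 CPM in aCXCR2 and 236 CPM in NRS (log2 ratio -1.28, -1.36 to -1.19). Bcl2a1b had 248 CPM in aCXCR2 and 556 CPM in NRS (log2 ratio -1.16, -1.22 to -1.11). Bcl2a1d had 69.4 CPM in aCXCR2 and 160 CPM in NRS (log2 ratio -1.21, -1.31 to -1.11). Summed, the copies had 415 CPM in aCXCR2 and 952 CPM in NRS, and the share of Mcl1 among pro-survival UMIs was 79.9% in aCXCR2 against 65.9% in NRS. At 1000 UMIs per cell, 16.2% of neutrophil-like cells in aCXCR2 and 29.6% in NRS had a Bcl2a1b UMI, against 0.995% and 2.37% of photoreceptor-like cells; unthinned, the neutrophil-like shares were 46.2% and 60.8% and the photoreceptor-like shares 5.97% and 16.98%, at median depths of 7834 and 4494 UMIs in neutrophil-like and 6293 and 7198 UMIs in photoreceptor-like cells.

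The lower Bcl2a1 levels were also present cluster by cluster. Each copy was lower in aCXCR2 in all 5 clusters compared, with median log2 ratios over the clusters of -0.70 for Bcl2a1a, -0.91 for Bcl2a1b and -1.15 for Bcl2a1d, where the median over all genes within these clusters lay between -0.33 and -0.17. In clusters 0, 1, 5 and 10 each copy lay below that cluster's own median of all genes. In cluster 1 Bcl2a1a was at 89.0 CPM in aCXCR2 and 288 CPM in NRS, and in cluster 10 at 133 and 283 CPM. Cluster 8 was the exception in size: Bcl2a1a was at 134 CPM in aCXCR2 and 166 CPM in NRS there, the intervals of the Bcl2a1b and Bcl2a1d ratios (-0.13 and -0.18) included 0, and both ratios lay above that cluster's median of all genes, -0.29, with Bcl2a1a (-0.31) at it. Clusters 3 and 4, which have no class, showed Bcl2a1a at 87.5 and 65.6 CPM in aCXCR2 against 214 and 177 CPM in NRS. Cluster 13, with no class but scoring highest as neutrophil, did not show lower levels beyond counting error. Its ratios were 0.26 for Bcl2a1a, -0.15 for Bcl2a1b and 0.20 for Bcl2a1d, with intervals that included 0, above its median of all genes, -0.38. In cluster 15 they were -2.79, -0.45 and -1.05, where only the Bcl2a1a interval lay below 0. Cluster 9, present almost only in aCXCR2, held the lowest levels of the neutrophil-like clusters of aCXCR2. These were 23.6 CPM of Bcl2a1a, 78.2 CPM of Bcl2a1b and 22.1 CPM of Bcl2a1d. Photoreceptor-like cells of aCXCR2 had 17.4, 32.8 and 8.46 CPM, and their cluster 6 had 23.3 CPM of Bcl2a1a. How much of the cluster 9 levels was RNA of other cells was not tested. With 13 cells in NRS, cluster 9 has no level to compare.

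**Figure D2:**
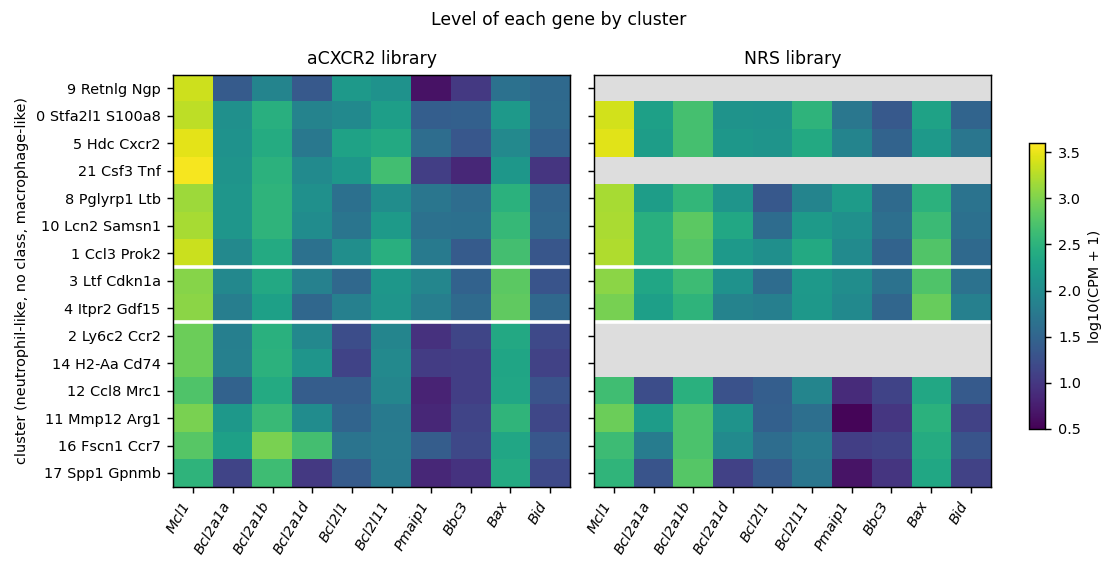
Level of each gene (columns) in each cluster (rows; neutrophil-like clusters at the top, clusters with no class in the middle, macrophage-like clusters at the bottom), as log10(CPM + 1), with aCXCR2 at the left and NRS at the right; grey rows had fewer than 50 cells in that library. Mcl1 is brightest in the neutrophil-like rows of both libraries, Bax in clusters 1, 3 and 4, and the 3 Bcl2a1 copies are dark in cluster 9 and bright in cluster 16 of aCXCR2.

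In macrophage-like cells the 3 copies did not go the same way. Bcl2a1a had 66.4 CPM in aCXCR2 and 59.7 CPM in NRS, Bcl2a1b had 319 and 492 CPM, and Bcl2a1d had 81.6 and 53.4 CPM, which are log2 ratios of 0.15, -0.62 and 0.61. Within the 4 clusters compared (11, 12, 16 and 17) Bcl2a1a and Bcl2a1d were each higher in aCXCR2 in 2 and lower in 2, with medians of 0.31 and 0.11, and Bcl2a1b was lower in 3, with a median of -0.32. The widest ranges within a class were found here. In cluster 16, which is led by Fscn1, Il4i1 and Ccr7 and so carries leading genes of mature dendritic cells beside its macrophage markers, Bcl2a1d was at 465 CPM in aCXCR2 (64 cells) and 95.9 CPM in NRS (161 cells), and Bcl2a1b at 959 and 528 CPM. Cluster 17, led by Spp1 and Gpnmb, had 9.43 CPM of Bcl2a1d in aCXCR2 and 11.4 CPM in NRS, a level 49.3-fold under that of cluster 16 in aCXCR2, beside 8.46 CPM in aCXCR2 and 12.1 CPM in NRS in photoreceptor-like cells. Without cluster 16 the class ratios were 0.12 for Bcl2a1a, -0.66 for Bcl2a1b and 0.58 for Bcl2a1d.

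The split of UMIs between the copies was steady in neutrophil-like cells and wide in macrophage-like cells. Of the Bcl2a1 UMIs of neutrophil-like cells, 59.8% were given to Bcl2a1b in aCXCR2 and 58.3% in NRS, 23.5% and 24.8% to Bcl2a1a, and 16.7% and 16.8% to Bcl2a1d. In macrophage-like cells the Bcl2a1b share was 68.3% in aCXCR2 and 81.3% in NRS. It reached 95.2% in cluster 17 in each library, and 82.0% in aCXCR2 and 89.6% in NRS in cluster 12 (Ccl8, Pf4 and Mrc1). Cluster 16 gave 29.0% of its Bcl2a1 UMIs to Bcl2a1d in aCXCR2 and 13.98% in NRS. The counting was the same for all clusters. Whether the shares differ through the copies expressed or through the assignment of reads between near-identical copies was not tested.

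**Figure D3:**
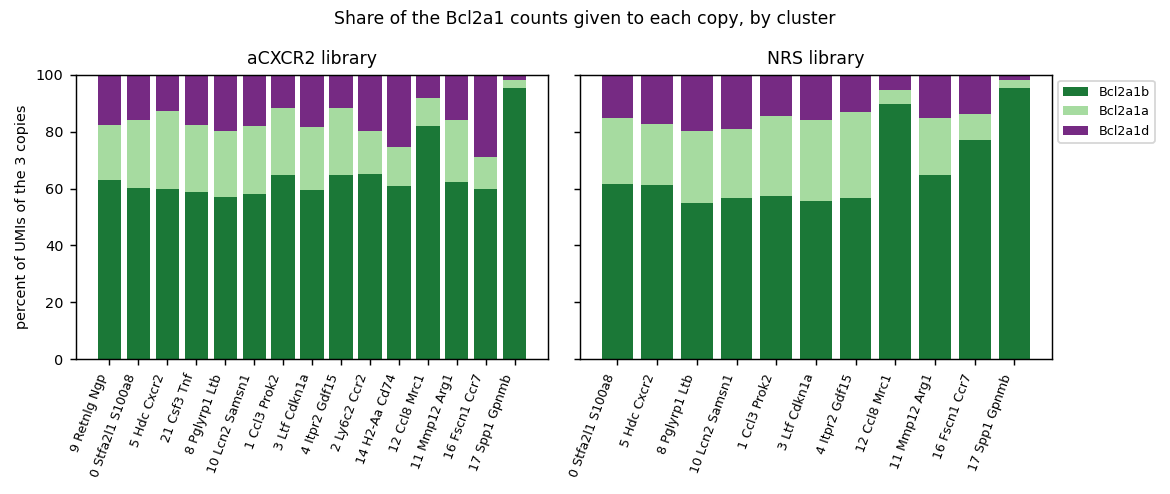
Percent of the UMIs of the 3 Bcl2a1 copies given to Bcl2a1b, Bcl2a1a and Bcl2a1d in each cluster of 50 or more cells, aCXCR2 at the left and NRS at the right. The Bcl2a1b share lies near 60% in the neutrophil-like clusters and reaches 95.2% in cluster 17 in both libraries.

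Bcl2l1 (ENSMUSG00000007659, chr2:152780668-152831728, minus strand), which encodes Bcl-xL, was read differently by the scalings in the neutrophil-like class. It had 100.3 CPM in aCXCR2 and 89.0 CPM in NRS (log2 ratio 0.17, 0.06 to 0.29; 0.79 with TMM and 0.81 with median of ratios factors), and 20.4 and 24.1 CPM in macrophage-like cells (log2 ratio -0.24, -0.41 to -0.07). Its range over neutrophil-like clusters was wide in each library, from 192 CPM in cluster 5 to 42.7 CPM in cluster 8 in aCXCR2, and from 125 CPM in cluster 5 to 21.3 CPM in cluster 8 in NRS. Cluster 5 thus led for Bcl2l1 in both libraries and cluster 8 was lowest for both Bcl2l1 and Mcl1. In cluster 8 the Bcl2l1 ratio was the highest of the 5 clusters, at 1.003 (0.38 to 1.68), on 25 UMIs in NRS. The ratio was positive in 3 of the 5 clusters and negative in 2, and lowest in cluster 0, at -0.36 (-0.65 to -0.07).

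Of the BH3-only genes, Pmaip1 (ENSMUSG00000024521, chr18:66458533-66465565, plus strand) differed most between the libraries. Pmaip1 encodes Noxa, which binds Mcl1 and A1. Neutrophil-like cells had 28.0 CPM in aCXCR2 and 97.9 CPM in NRS, which is 3.495-fold lower in aCXCR2 (log2 ratio -1.81, -1.95 to -1.66). A Pmaip1 UMI was found in 2.09% of neutrophil-like cells in aCXCR2 and 9.96% in NRS at 1000 UMIs per cell (17.9% and 30.1% unthinned), against 0.498% and 0.158% of photoreceptor-like cells (1.99% and 6.45% unthinned). It was lower in aCXCR2 in each of the 5 clusters, by log2 ratios between -1.62 in cluster 8 and -0.75 in cluster 1, each below the median of all genes in that cluster. In cluster 8 its level was 51.0 CPM in aCXCR2 and 157 CPM in NRS, in cluster 10 it was 44.6 and 114 CPM, and in cluster 5 it was 39.4 and 79.2 CPM. Cluster 9 had 3.496 CPM in aCXCR2. Macrophage-like cells had 7.43 CPM in aCXCR2 (6.72 to 8.20) and 5.25 CPM in NRS (4.18 to 6.51), beside 2.64 CPM (0.86 to 6.17) and 5.66 CPM (4.27 to 7.35) in photoreceptor-like cells, and their shares of cells with a UMI, 0.972% and 0.511% at equal depth, had intervals that overlapped those of photoreceptor-like cells.

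Bcl2l11 (ENSMUSG00000027381, chr2:128126038-128162547, plus strand) encodes Bim, which binds all pro-survival proteins of the family. Neutrophil-like cells had 172 CPM in aCXCR2 and 213 CPM in NRS (log2 ratio -0.31, -0.38 to -0.23), and macrophage-like cells had 77.3 and 59.97 CPM (log2 ratio 0.37, 0.26 to 0.47). Its highest level in aCXCR2 was 453 CPM in cluster 21 and its lowest in the class 105 CPM in cluster 8; in NRS cluster 0 led at 330 CPM and cluster 8 was again lowest at 78.5 CPM. Cluster 0 was where the libraries stood farthest apart, with 172 CPM in aCXCR2 and 330 CPM in NRS. The log2 ratios in clusters 5 and 10 were -0.00 and 0.03. In clusters 1 and 8 Bcl2l11 was higher in aCXCR2, at 0.24 (0.07 to 0.41) and 0.42 (0.08 to 0.76). Of the 5 clusters compared, 3 had a positive and 2 a negative ratio, with a median of 0.03.

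Bbc3 (ENSMUSG00000002083, chr7:16308393-16318205, plus strand) encodes Puma, a p53 target, and Bid (ENSMUSG00000004446, chr6:120891930-120916853, minus strand) links death receptors to mitochondria once caspase-8 has cut its protein. Bbc3 was low in neutrophil-like cells, at 24.8 CPM in aCXCR2 and 31.7 CPM in NRS, and its share of cells with a UMI at equal depth (1.97% and 3.06%) was below that of photoreceptor-like cells (7.46% and 4.42%), which are no background for this gene since part of them had high counts of it. Photoreceptor-like cells were where Bbc3 stood out: 121 CPM in aCXCR2 and 42.7 CPM in NRS over the class. That gap went with the clusters present. Cluster 18, led by Dusp8, Atf4 and Guca1a, had 287 CPM in aCXCR2 (75 cells) and 316 CPM in NRS (49 cells), and it was 37.3% of the class in aCXCR2 against 7.70% in NRS. In cluster 6, the largest photoreceptor-like cluster, Bbc3 was at 19.4 CPM in aCXCR2 and 33.5 CPM in NRS, the opposite order, and 0.813% and 2.16% of its cells had a UMI at equal depth, with intervals that reach up to 4.45% and 3.83% and so include the neutrophil-like shares. Bid had 32.7 CPM in aCXCR2 and 41.5 CPM in NRS in neutrophil-like cells and 14.9 and 14.6 CPM in macrophage-like cells. Within the 5 neutrophil-like clusters compared, Bid was lower in aCXCR2 in 4 and higher in 1, with a median log2 ratio of -0.56. The intervals lay below 0 in clusters 1, 5 and 8 and included 0 in clusters 0 and 10.

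Bax (ENSMUSG00000003873, chr7:45461697-45466898, minus strand), the pore-forming effector, was lower in the neutrophil-like class of aCXCR2, at 181 CPM against 367 CPM in NRS (log2 ratio -1.02, -1.08 to -0.95). Most of that gap was not present within clusters: in the 5 clusters compared the log2 ratios lay between -0.70 in cluster 5 and -0.06 in cluster 8, with a median of -0.28, where the medians of all genes lay between -0.33 and -0.17. Bax instead set the clusters apart in each library. Cluster 1 had 468 CPM in aCXCR2 and 567 CPM in NRS, cluster 10 had 382 and 413 CPM, cluster 8 had 300.3 and 313 CPM, cluster 0 had 149 and 190 CPM, and cluster 5 had 89.2 and 144 CPM. The order of these 5 was the same in both libraries, and in NRS no neighbours in it had overlapping intervals. Cluster 9, in aCXCR2, was lowest at 44.4 CPM, 10.5-fold under cluster 1. Clusters 3 and 4, with no class, exceeded every neutrophil-like cluster, at 662 and 696 CPM in aCXCR2 and 556 and 767 CPM in NRS, except that cluster 1 of NRS lay above cluster 3 of NRS.

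Macrophage-like cells had 241 CPM of Bax in each library (log2 ratio 0.00, -0.05 to 0.06), with levels between 209 and 339 CPM in clusters of 50 or more cells. A Bax UMI was found in 14.1% of neutrophil-like cells in aCXCR2 and 26.1% in NRS at 1000 UMIs per cell (57.5% and 62.7% unthinned), where photoreceptor-like cells had 14.4% and 13.9% (59.2% and 66.7% unthinned). The aCXCR2 share is thus at the photoreceptor-like level; whether photoreceptors express Bax was not tested.

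**Figure D4:**
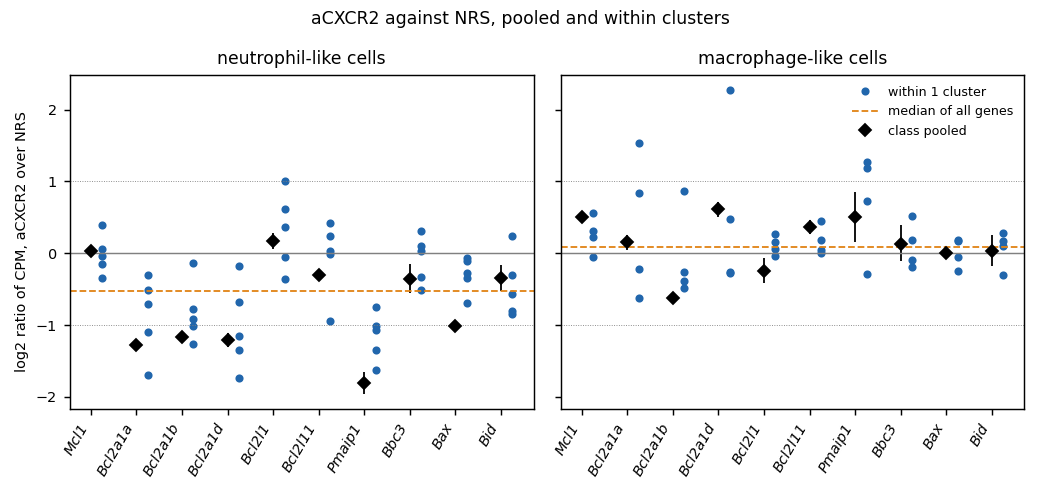
Log2 ratio of aCXCR2 over NRS for each gene in neutrophil-like cells (left) and macrophage-like cells (right): diamonds are class values with exact 95% counting intervals, dots are single clusters of 50 or more cells per library, and the dashed line is the median of all genes. The Bcl2a1 copies and Pmaip1 lie below 0 in the neutrophil-like class and in each of its clusters, while the Bax class value of -1.02 lies below all of its cluster values.

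Bax UMIs per 100 Mcl1 UMIs put the effector beside the main survival gene of the class, and they differed widely between clusters. The neutrophil-like class had 8.87 in aCXCR2 and 18.3 in NRS, and the macrophage-like class had 33.2 and 47.2. Cluster 9 had 1.91 in aCXCR2, cluster 5 had 2.98 in aCXCR2 and 5.02 in NRS, cluster 0 had 7.67 and 7.73, and cluster 1 had 21.003 and 33.4. Cluster 3 reached 61.2 in aCXCR2 and 47.8 in NRS, and cluster 4 reached 60.7 and 82.3. Among macrophage-like clusters, cluster 17 was highest, at 76.1 and 64.3. Within clusters 0, 8 and 10 the counting intervals of the libraries overlapped, with 21.6 in aCXCR2 and 20.3 in NRS in cluster 8 and 24.3 and 25.5 in cluster 10. Within clusters 1, 5 and 4 the value was lower in aCXCR2 beyond the counting intervals, and within cluster 3 it was higher beyond them. The 4 BH3-only genes together had 10.1 UMIs per 100 pro-survival UMIs in the neutrophil-like cells of aCXCR2 and 12.6 in those of NRS, and 9.17 and 7.94 in macrophage-like cells.

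**Figure D5:**
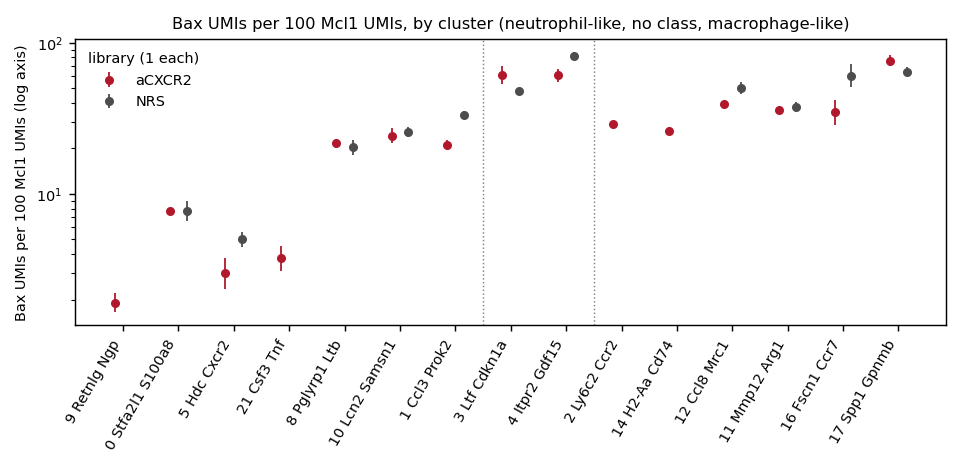
Bax UMIs per 100 Mcl1 UMIs by cluster on a log axis, aCXCR2 and NRS, with exact 95% counting intervals. In aCXCR2 the values run from 1.91 in cluster 9 to 61.2 and 60.7 in clusters 3 and 4 and 76.1 in cluster 17; in both libraries clusters 5 and 0 lie under 10.

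Set against all genes, the count of members that stood apart depends on how the libraries are scaled. In neutrophil-like cells 5 of the 10 members (the 3 Bcl2a1 copies, Pmaip1 and Bax) were at least 2-fold lower in aCXCR2 and 0 were at least 2-fold higher, beside 14.5% (lower) and 1.63% (higher) of the 7116 genes with 10 CPM or more in either library. The median log2 ratio was -0.69 over the members and -0.52 over all these genes. The 3 Bcl2a1 copies are near-identical and their single counts are uncertain, so they are not 3 separate measures in this count and median. Scaling by TMM factors, which centre the bulk of genes, moved every ratio by 0.62; then 1 of 10 members, Pmaip1 (log2 ratio -1.19), was at least 2-fold lower, beside 2.89% of genes lower and 5.64% higher, and Bcl2a1a was at -0.66, Bcl2a1b at -0.55, Bcl2a1d at -0.59 and Bax at -0.40. Under TMM the ratios of Bcl2l11, Bbc3 and Bid were positive (0.31, 0.26 and 0.27), Bcl2l1 was at 0.79 and Mcl1 at 0.64. Median of ratios factors likewise left 1 of 10 members lower, beside 2.7% of genes lower and 5.86% higher. In macrophage-like cells 0 of the 9 members that reached 10 CPM (Pmaip1 did not) were 2-fold apart in either direction, beside 2.93% (higher) and 2.48% (lower) of 7568 genes, and the medians were 0.14 for the members and 0.08 for all genes; no count by a test exists with 1 library each.

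Other genes of the pathway were read from 4 lists. Over all genes of neutrophil-like cells the median log2 ratio was -0.52. Of these genes 14.5% were at least 2-fold lower and 1.63% at least 2-fold higher in aCXCR2. Of the other BCL2 family genes, 5 of 16 reached 10 CPM in neutrophil-like cells and 0 were 2-fold apart (median log2 ratio -0.27). Bak1, the second effector, had 53.6 CPM in aCXCR2 and 64.7 CPM in NRS, Bnip3l had 342 and 439 CPM, and Bnip3, its relative in mitochondrial clearance, had 235 and 277 CPM. Of the apoptosome and caspase genes, 12 of 16 reached 10 CPM, of which 1 was past 2-fold upwards and 1 past 2-fold downwards in aCXCR2 (median -0.50). Cycs, which encodes cytochrome c, was the lower, at 60.8 CPM in aCXCR2 and 157 CPM in NRS (log2 ratio -1.37); the higher was the effector caspase Casp6, named after its values were seen, at 32.0 and 11.2 CPM. Vdac2, a channel of the outer mitochondrial membrane, had 126 CPM in aCXCR2 and 206 CPM in NRS, and Vdac1 had 50.4 and 71.1 CPM.

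Death receptor and inhibitor of apoptosis genes stood nearer each other in the 2 libraries when scaled by total UMIs, but not with TMM factors. Of this list 10 of 16 reached 10 CPM and 0 were 2-fold apart, with a median log2 ratio of 0.09, beside -0.52 over all genes. With TMM factors the list median was 0.70, beside 0.10 over all genes. Cflar, which encodes the caspase-8 inhibitor c-FLIP, had 269 CPM in aCXCR2 and 294 CPM in NRS, the death receptor gene Fas had 277 and 231 CPM, and Birc3, which encodes cIAP2, had 267 and 237 CPM. Of the p53 and stress regulators, which include known inducers and co-targets of Pmaip1, Bbc3 and Bax, 9 of 13 reached 10 CPM and 4 were at least 2-fold lower in aCXCR2, with a median of -0.93. These were Cdkn1a, the cell cycle inhibitor p21, at 189 CPM in aCXCR2 and 391 CPM in NRS, Ddit3 (CHOP) at 61.6 and 145 CPM, Ccng1 at 51.9 and 107 CPM, and Trp53 at 20.9 and 47.4 CPM, the last named after its values were seen. Mdm2, the p53 ligase, had 139 and 264 CPM, and Atf4 had 144 and 231 CPM. Under TMM scaling 0 of the 4 lists had a gene at least 2-fold lower, and 1 gene was at least 2-fold higher in each of the apoptosome and death receptor lists. The median of the p53 and stress list was then -0.31. In macrophage-like cells 0 of the genes of the 4 lists that reached 10 CPM were 2-fold apart, with medians between 0.02 and 0.31.

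The level of the p53 and stress list, summed, is given beside Bax, as a measure that moved with it over some clusters and not over others. It was 452 CPM in cluster 9, 634 CPM in aCXCR2 and 1040 CPM in NRS in cluster 0, 1210 and 1696 CPM in cluster 1, 1482 and 1705 CPM in cluster 3 and 1395 and 1851 CPM in cluster 4. Clusters low in Bax could be high in it: it was 939 CPM in aCXCR2 and 936 CPM in NRS in cluster 5, and 1319 CPM in cluster 21 of aCXCR2, where Bax was at 136 CPM. It lay between 306 and 692 CPM in the macrophage-like clusters of 50 or more cells. Cluster 18 of the photoreceptor-like class, where Bbc3 was highest, had 3516 CPM in aCXCR2. Of this sum, 2215 CPM was Atf4, a leading gene of that cluster, and 568 CPM was Ddit3. Cdkn1a and Mdm2 had 88.7 and 157 CPM there.

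Likeness over clusters was described with Pearson's r of log2(CPM + 10) over 38 cluster and library sums of at least 50 cells, among 7425 genes; the points share libraries and cell classes, so no test is given. Mcl1 was most like Snx18 (0.97), Casp4 (0.96) and Cebpb (0.95), the last a transcription factor of myeloid cells. Bcl2a1a and Bcl2a1d were the nearest to each other of all genes (0.91), with Mrpl52 and Arf6 next for Bcl2a1a, and Bcl2a1b (0.79) and the NF-kappaB gene Relb (0.77) next for Bcl2a1d. Bcl2a1b was most like Clec4n, which encodes the fungal receptor Dectin-2 (0.87), Tuba1c and Plin2. The nearest genes to Bcl2l1 were Mxd1 (0.87), Gpcpd1 and Gadd45a, those to Bcl2l11 were Nfkbid (0.93), Lamb3 and Tnfrsf23, and those to Bax were Scamp3 (0.92), AI413582 and Mif.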

How the data were processed

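Single-cell 3′ UMI counts were deposited by the authors as raw count matrices, 1 per library; per the submitters' processing notes Cell Ranger and Seurat were used (version 3.0.0 of the counting software, per the file headers). The notes name GRCh38, although the deposited gene IDs are mouse; which mouse build was used is not stated in these sources. Members, lists and cell types were taken with earlier results of these data known. Cells were filtered (500 UMIs, 200 genes, 10% mitochondrial) and clustered with the 71 pathway genes left out: 2000 genes by Pearson residuals, 30 components, 15 neighbours, Leiden at resolution 1 (scanpy 1.11.5, leidenalg 0.10.2, Python 3.11.15). Clusters were named by the mean log2 level of fixed markers over the median cluster (prior 100 CPM, score at least 0.5). These settings were chosen after several were looked at, with levels of some members in view, and the partition changes with numerical rounding. A doublet caller marked 4 and 0 cells in aCXCR2 and NRS, so it has not worked, and doublets stayed in. CPM were UMIs summed over cells; intervals are exact Poisson, conditional binomial or Clopper-Pearson at 95% and cover counting error only. TMM factors came from edgeR 4.0.16. Library totals were 85748842 UMIs for aCXCR2 and 61386486 UMIs for NRS. Shares were thinned to 1000 UMIs per cell, leaving out 2 and 20 shallower neutrophil-like cells of aCXCR2 and NRS, 8 and 13 macrophage-like cells, and 0 and 3 photoreceptor-like cells. All 10 members were named, with the 3 highest genes of each list and those at least 2-fold apart with 50 CPM, and the 3 genes most alike. The ratio step was run on simulated class sums with known changes. These sums held counting error only, so they do not check the summing of cells, the clusters or the scaling.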

Additional observations from a re-analysis of the deposited data

Results flagged for a closer look

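Of the 10 genes, 5 had log2 ratios of aCXCR2 over NRS on opposite sides of 0 in neutrophil-like and macrophage-like cells. For these 5 neither counting interval included 0. The median over all genes was -0.52 in neutrophil-like and 0.08 in macrophage-like cells, so it too lay on opposite sides of 0. The share of all genes with opposite signs was not counted. With 1 library each the differences between the classes were not tested. Bcl2a1a was at -1.28 in neutrophil-like and 0.15 in macrophage-like cells, where it was negative in 2 of 4 clusters and in 3 of 16 alternatives (-0.37 to 1.18). Bcl2a1d was at -1.21 in neutrophil-like and 0.61 in macrophage-like cells, where it was negative in 2 of 4 clusters and in 1 of 16 alternatives (-0.02 to 1.66). Pmaip1 was at -1.81 in neutrophil-like and 0.50 in macrophage-like cells, where it had 7.43 CPM in aCXCR2 and 5.25 CPM in NRS, beside 2.64 and 5.66 CPM in photoreceptor-like cells. Bcl2l11 was at -0.31 in neutrophil-like and 0.37 in macrophage-like cells, and with TMM factors at 0.31 and 0.36, so its opposite signs depend on the scaling. Bcl2l1 was at 0.17 in neutrophil-like and -0.24 in macrophage-like cells; with clusters weighted equally its ratios were 0.36 and 0.11, on the same side.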

How the results depend on the processing

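No paired analysis was possible because each treatment has 1 library and the labels give no replicate numbers. The count of 5 neutrophil-like members at least 2-fold apart became 1 with TMM factors, 1 with median of ratios factors, 1 with clustering on scaled log values, 2 with clusters weighted equally, 2 with clustering on log values of the same genes and 3 with the clusters of no class added. The members' median log2 ratio of -0.69 became -0.069 with TMM factors, -0.043 with median of ratios factors, -0.42 with clusters weighted equally, -0.59 without cluster 1, -0.83 with clustering on log values, -0.95 with a naming prior of 10 CPM, -1.03 with libraries clustered separately and -1.09 with a minimum of 50 CPM. For macrophage-like cells the count of 0 became 1 with clustering on log values and 2 with naming against all other cells, and the median of 0.14 became -0.11 with the mean of per-cell CPM, -0.064 with a naming prior of 10 CPM and 0.26 with a minimum of 50 CPM. The clusterings on log values, the 2 other ways of naming, the clusters of no class and leaving out cluster 16 were added after seeing the data. The cause of these shifts was not tested.

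Over the 19 neutrophil-like alternatives that give single ratios, those of the Bcl2a1 copies, Pmaip1 and Bax were negative in all 19: -1.60 to -0.63 for Bcl2a1a, -1.41 to -0.52 for Bcl2a1b, -1.49 to -0.56 for Bcl2a1d, -2.47 to -1.07 for Pmaip1 and -1.82 to -0.28 for Bax. Pmaip1 was at least 2-fold lower in 19 of them, Bcl2a1d in 15, Bcl2a1a in 14, Bcl2a1b in 13 and Bax in 10. The signs of Mcl1 (-0.38 to 0.67), Bcl2l1 (-0.11 to 0.81), Bcl2l11 (-0.77 to 0.34), Bbc3 (-0.52 to 0.29) and Bid (-0.60 to 0.30) were not the same in all. With 1 library each, treatment, animals, depth and preparation cannot be told apart. In NRS, photoreceptor-like cells held 53.5 CPM of Bcl2a1b, a gene of haematopoietic cells, and their cluster 6 held 86.6 CPM. Low levels of the members can therefore be free RNA.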

Other observations

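Barcodes with over 10% mitochondrial UMIs, left out above, gave other levels of the members: 524 barcodes in aCXCR2 (median 25.7% mitochondrial) and 1521 in NRS (median 21.3%), compared on UMIs of nuclear genes. In NRS, Mcl1 was at 286 CPM in the barcodes left out and 920 CPM in those kept (log2 ratio -1.69), and in aCXCR2 at 956 and 1134 CPM (-0.25). Bid in NRS was at 4.52 and 26.8 CPM (-2.57), and Bax was lower in the barcodes left out of both libraries, by log2 ratios of -0.72 in aCXCR2 and -1.12 in NRS. Bcl2l1 in aCXCR2 was higher in the barcodes left out, at 65.1 against 46.2 CPM (0.49). The cell types of these barcodes were not analysed here, so the values mix cell makeup and level per cell.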
